A study of Mus musculus with 12 samples.

Results

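The genes described here form the route from glucose to lactate and to stored glycogen: 39 genes for glucose uptake, the steps of glycolysis, lactate dehydrogenase and lactate export, pyruvate entry into mitochondria, and glycogen synthesis and breakdown. They were taken from the deposited expression table by gene symbol, without regard to their values, and all 39 were found among its 56791 gene names. They occupy 40 of its 56941 rows, because Aldoa has a second row that was added to the first.

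Glycolysis splits glucose into pyruvate, and many of its steps can be carried out by any of several isozymes, each encoded by its own gene. In the brain, astrocytes take up glucose, store most of the tissue's glycogen and release lactate, which neurons can take up and oxidise through monocarboxylate transporters, an exchange known as the astrocyte-neuron lactate shuttle. Glycogen is built by glycogen synthase and the branching enzyme and is broken down by glycogen phosphorylase, and which isozymes a cell uses sets how each step responds to energy demand.

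Mouse astrocytes were sorted by fluorescence from hippocampi of naive adult males by labelling of ACSA-2, an astrocyte surface antigen, and their RNA was sequenced with the SMART-Seq V4 low-input chemistry. Control mice (Ctrl) were Tnfrsf1bfl/fl, with a floxed gene for the TNF receptor TNFR2. The cKO mice were GfapcreERT2:Tnfrsf1bfl/fl, carrying the same floxed gene and a CreERT2 recombinase driven by the promoter of Gfap, an astrocyte gene. Both genotypes therefore share the floxed allele, and the recombinase itself is found in 1 of them only. Treatment with an inducer is not given in the labels. The study's title asks how this receptor in astrocytes bears on synaptic function in each sex, and these libraries are all from males.

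The 12 libraries carry A numbers and S numbers that the labels do not define: A1, A2 and A8 are Ctrl, A4, A9 and A10 are cKO, and each A number has an S1 and an S2 library. S1 and S2 were averaged to 1 unit, so n is 3 units a genotype. The labels do not say that each A number is a separate animal, so p-values measure the spread between these units, which may be technical. Recovered depth was 17311872 to 22025823 reads in S1 and 28096485 to 35323322 in S2. Tnfrsf1b had no reads in 9 of 12 libraries, 4 reads in the S1 library of Ctrl A1, and 10 and 22 reads in the S1 and S2 libraries labelled cKO of A4. A library with no reads allows up to 3 by counting error alone, so the gene could not check the genotype labels. The highest reads of the gene were in A4, which is labelled cKO. A4 also had the highest mean log2(FPKM + 1) of the 6 microglial markers, 1.64, against 0.42 to 0.81 in the other units. Which cells these reads came from was not tested. The 14 astrocyte markers were all detected, at a mean log2(FPKM + 1) of 7.80 ± 0.12 (SD, n = 3) in Ctrl and 7.99 ± 0.07 (SD, n = 3) in cKO, with each cKO unit above each Ctrl unit.

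Levels are given as FPKM, fragments per kilobase of gene length per 1000000 assigned fragments. FPKM is per length, so it allows genes to be compared. The length used in the deposited table is that of all annotated exons of a gene, which for Pfkp was 3.23 times and for Gapdh 2.91 times the length of the principal transcript. Shares of isozymes are taken over the genes of the set alone, and are given on the deposited length and again on the principal transcript's length. The 39 genes took 0.614% to 0.740% of all reads of a unit, 0.682% ± 0.059 (SD, n = 3) in Ctrl and 0.720% ± 0.018 (SD, n = 3) in cKO. Of the 39 genes, 35 had a mean of at least 1 FPKM over the 12 libraries and were tested; the members below that level were Slc2a3, Hk2, Slc16a3 and Slc16a7.

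**Figure D1:**
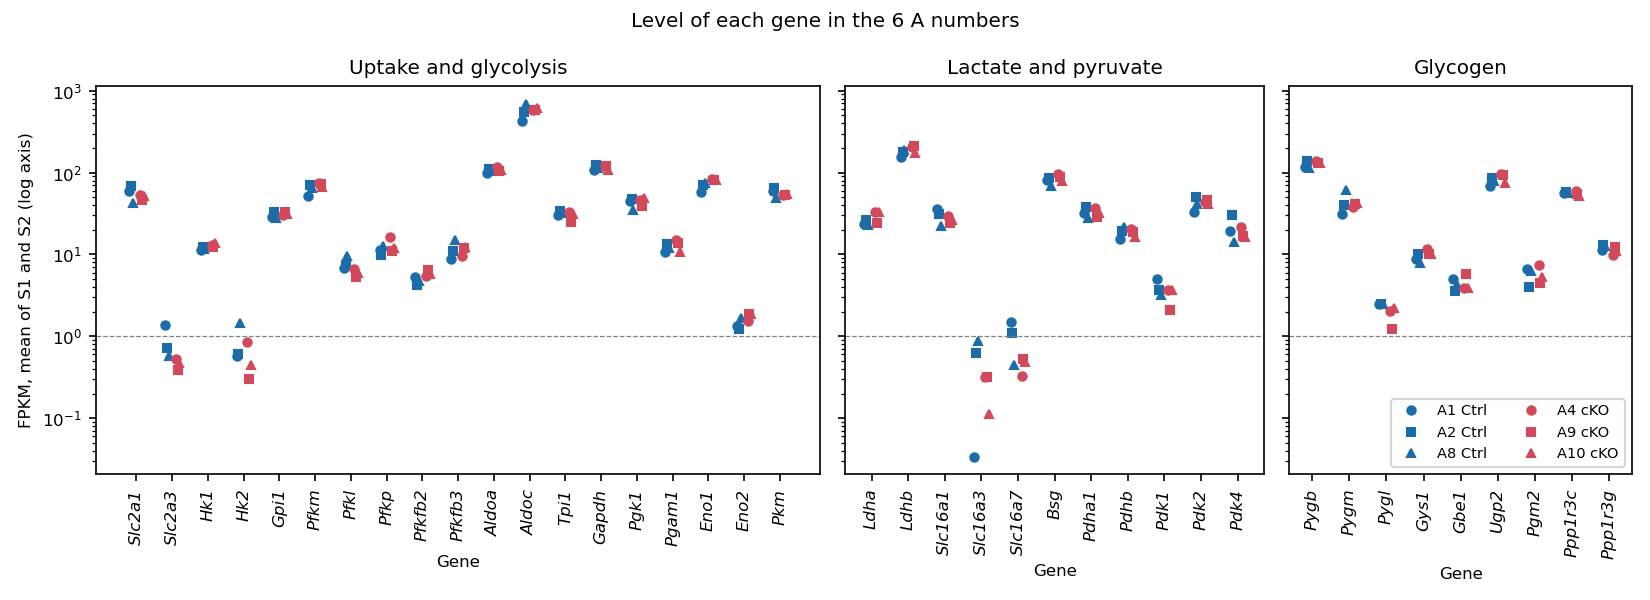
Level of each of the 39 genes in the 6 units, as FPKM on a log axis, with Ctrl units in blue and cKO units in red; the dashed line marks 1 FPKM. Aldoc lies highest, between 429.8 and 695 FPKM, and Slc2a3, Hk2, Slc16a3 and Slc16a7 lie around or below the line.

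Glucose uptake and trapping were each dominated by 1 gene. Slc2a1 (ENSMUSG00000028645), which encodes the glucose transporter GLUT1, was at 59.3, 68.3 and 42.5 FPKM in the Ctrl units A1, A2 and A8 and at 53.3, 46.4 and 51.4 FPKM in the cKO units A4, A9 and A10. The genotypes overlapped, and the highest and the lowest unit were both Ctrl. Slc2a3, for the transporter GLUT3 that is best known from neurons, was at 1.36, 0.711 and 0.568 FPKM in Ctrl and 0.534, 0.386 and 0.479 in cKO, all cKO units below all Ctrl units. Its reads were few, 86 to 326 in a Ctrl library and 53 to 124 in a cKO library. Slc2a1 made up 98.8% ± 0.53 (SD, n = 6) of the FPKM of this pair. Hk1, the hexokinase that binds mitochondria and phosphorylates glucose, was at 11.5, 12.3 and 11.8 FPKM in Ctrl and at 12.9, 12.5 and 13.8 in cKO. Each cKO unit lay above each Ctrl unit, by a small margin. Hk2, the insulin-responsive hexokinase, ranged from 0.305 to 1.47 FPKM, and Hk1 took 94.6% ± 3.1 (SD, n = 6) of their sum, with 88.9% in A8 as the lowest share. Gpi1, which turns glucose 6-phosphate into fructose 6-phosphate, ranged only from 28.0 to 33.0 FPKM.

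At phosphofructokinase, the committed and most tightly regulated step, the muscle-type gene Pfkm was the highest of 3 in every unit. It was at 51.3, 69.7 and 65.2 FPKM in Ctrl and 74.6, 73.3 and 67.5 in cKO, with overlap between the genotypes. The platelet-type gene Pfkp ranged from 9.89 to 16.5 FPKM. The liver-type gene Pfkl was at 6.82, 7.53 and 9.53 FPKM in Ctrl and 6.56, 5.36 and 5.98 in cKO, each cKO unit below each Ctrl unit. This step depended most on the length used: Pfkm took 77.6%, Pfkp 14.2% and Pfkl 8.18% on the deposited lengths, and 59.9%, 30.4% and 9.70% on the principal transcripts. Pfkm stayed first in 6 of 6 units on either length. The bifunctional enzymes that set the level of fructose 2,6-bisphosphate, the activator of phosphofructokinase, are represented in the set by Pfkfb3 and Pfkfb2. Pfkfb3, the form with the strongest kinase activity, was at 8.87, 10.9 and 14.8 FPKM in Ctrl and 9.63, 11.9 and 12.2 in cKO. Pfkfb2, known from heart, was at 5.27, 4.19 and 4.77 FPKM in Ctrl and 5.44, 6.45 and 5.74 in cKO, with no overlap, and took 32.1% ± 5.1 (SD, n = 6) of the pair. Pfkfb4, outside the set and not in this share, was at 3.64 to 8.43 FPKM, about the level of Pfkfb2.

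Aldolase gave the highest level in the whole set. Aldoc (ENSMUSG00000017390, chr11:78213794-78218607, plus strand, as in the deposited table), the brain aldolase that serves as an astrocyte marker, was at 429.8, 542 and 695 FPKM in Ctrl and at 586, 587 and 618 in cKO. The 3 cKO units lay close together, between the lowest and the highest Ctrl unit. Aldoc alone took 26.8% of the reads of the 39 genes. The ubiquitous Aldoa ranged from 99.1 to 118 FPKM and made up 15.9% ± 2.0 (SD, n = 6) of the pair, or 23.7% ± 2.7 (SD, n = 6) on principal transcript lengths.

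The later steps of glycolysis have 1 gene each in this set, except for enolase. Gapdh, which makes the first high-energy phosphate and NADH, was at 107 to 122 FPKM, and Tpi1, which interconverts the triose phosphates, at 25.1 to 34.4. Pgk1, the first ATP-forming enzyme of the path, ranged from 35.2 to 48.3 FPKM and Pgam1, the mutase after it, from 10.7 to 14.96. Eno1 (ENSMUSG00000063524), the ubiquitous enolase, was at 58.5, 69.7 and 75.5 FPKM in Ctrl and at 83.9, 82.0 and 81.7 in cKO. All cKO units exceeded all Ctrl units, and the cKO units differed little among themselves. Eno2, the enolase used as a neuronal marker, was at 1.23 to 1.90 FPKM, and Eno1 took 97.9% ± 0.24 (SD, n = 6) of the pair. The third enolase gene, Eno3, is outside the set and the share, and was at 0.858 to 3.36 FPKM. Pkm, for pyruvate kinase, ranged from 48.9 to 64.7 FPKM. Its splice forms M1 and M2 are summed in a table by gene and were not told apart.

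Lactate dehydrogenase interconverts pyruvate and lactate, and its B subunit prevailed. Ldhb (ENSMUSG00000030246, chr6:142435975-142453683, minus strand, as in the deposited table), the subunit prevalent in heart and in lactate-oxidising tissue, was at 156, 176 and 188 FPKM in Ctrl and at 203, 213 and 175 in cKO. It was the second highest gene of the set on the deposited lengths and the third on principal transcript lengths, after Gapdh. Ldha, the subunit prevalent in lactate-forming tissue, was at 23.5, 26.5 and 22.6 FPKM in Ctrl and at 32.8, 24.3 and 33.4 in cKO. The cKO units A4 and A10 were above all Ctrl units, while A9 lay within the Ctrl range. Ldha made up 12.8% ± 2.1 (SD, n = 6) of the pair, or 18.6% ± 2.9 (SD, n = 6) on principal transcript lengths.

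Of the 3 monocarboxylate transporter genes in the set, 1 had nearly all of the mRNA. Slc16a1 (ENSMUSG00000032902), which encodes the monocarboxylate transporter MCT1, was at 36.3, 31.1 and 22.2 FPKM in Ctrl and at 29.4, 24.5 and 26.0 in cKO. Slc16a3, for MCT4, the low-affinity exporter of glycolytic cells that is often placed in astrocytes, was the lowest gene of the set, from 0.034 in A1 to 0.883 FPKM in A8. Its libraries held 2 to 131 reads in Ctrl and 9 to 59 in cKO. Slc16a7, for the neuronal transporter MCT2, was at 1.501, 1.11 and 0.445 FPKM in Ctrl and at 0.324, 0.523 and 0.480 in cKO. Slc16a1 thus took 96.2% ± 1.5 (SD, n = 6) of the sum, Slc16a7 2.37% ± 1.1 and Slc16a3 1.41% ± 1.3 (SD, n = 6). Bsg, for basigin, the chaperone that brings MCT1 and MCT4 to the membrane, was higher than any of them, at 67.9 to 95.05 FPKM.

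Entry of pyruvate into mitochondria showed 1 leading kinase. Pdha1 and Pdhb, for the subunits of pyruvate dehydrogenase, ranged from 27.8 to 38.2 and from 15.5 to 21.4 FPKM. Of the kinases that switch the enzyme off, Pdk2 was at 32.8, 50.0 and 41.7 FPKM in Ctrl and at 44.3, 46.5 and 41.3 in cKO. Pdk4, the form raised by fasting and glucocorticoids, ranged from 14.2 in A8 to 30.01 in A2, the widest spread of the tested genes relative to the mean (coefficient of variation over the 6 units 28.4%). Pdk1, a target of hypoxia signalling, ranged from 2.07 to 5.03 FPKM. Their shares were 64.9% for Pdk2, 29.6% for Pdk4 and 5.51% for Pdk1. These shares leave out Pdk3, which is not in the set and ranged from 0.405 FPKM in A8 to 5.72 in A1.

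Among the glycogen genes, the brain and muscle phosphorylases were at higher levels than the synthase. Pygb (ENSMUSG00000033059, chr2:150628655-150673678, plus strand, as in the deposited table), the brain phosphorylase, was at 118, 139 and 112 FPKM in Ctrl and at 137, 131 and 132 in cKO. The muscle phosphorylase Pygm, the form most responsive to phosphorylation, was at 30.9, 39.8 and 61.1 FPKM in Ctrl and at 37.6, 40.8 and 42.4 in cKO. A8 stood above all other units for Pygm, and its Pygm share was 34.7% against 20.4% to 24.0% elsewhere. The liver form Pygl was at 2.49, 2.50 and 2.48 FPKM in Ctrl and at 2.04, 1.24 and 2.21 in cKO, with no overlap. Over the 6 units Pygb took 74.4% ± 5.3, Pygm 24.3% ± 5.3 and Pygl 1.26% ± 0.31 (SD, n = 6).

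The muscle-type glycogen synthase Gys1 was at 7.80 to 11.7 FPKM, and the branching enzyme Gbe1 at 3.60 to 5.70. Ugp2, which makes the UDP-glucose that synthase uses, was far above both, at 68.9 to 96.0 FPKM. The gene the table calls Pgm2 ranged from 4.05 to 7.43 FPKM, while Pgm1, a gene outside the set that links glycogen to glucose 6-phosphate, was at 27.4, 32.0 and 55.9 FPKM in Ctrl and 35.4, 40.5 and 48.0 in cKO. Ppp1r3c, which targets protein phosphatase 1 to glycogen and so favours storage, was at 56.3, 57.4 and 56.3 FPKM in Ctrl and at 60.1, 54.3 and 52.1 in cKO. With a coefficient of variation of 4.84% it was the steadiest of the tested genes. Ppp1r3g, another targeting subunit, ranged from 9.84 to 12.9 FPKM, and Ppp1r3c took 82.7% ± 1.7 (SD, n = 6) of the pair.

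**Figure D2:**
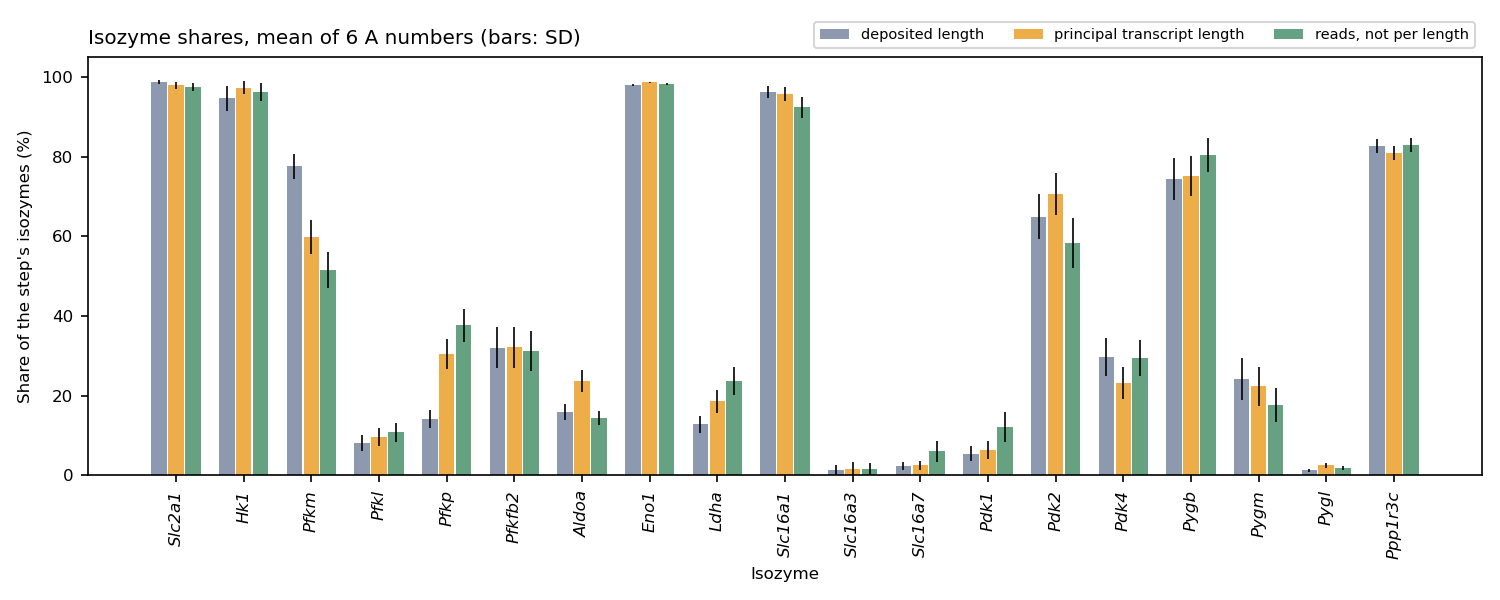
Share of each isozyme in its step, as percent of the step's summed level, mean of 6 units with SD bars, on the deposited length, on the principal transcript length and as reads without length correction. Where a step has a pair of genes, the share of 1 is drawn and the other makes up the rest; the phosphofructokinase shares move most, with Pfkm at 77.6%, 59.9% and 51.6%.

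In each of the 11 steps with several genes in the set, the same one was first in 6 of 6 units under every scale. No share passed an adjusted p of 0.05 between genotypes, which this number of units cannot reach. An exact two-sided permutation test over 20 arrangements, whose smallest possible p is 0.1, gave p = 0.1 for the shares of Slc2a1, Pfkl, Slc16a1 and Pygl. Adjusted by Benjamini-Hochberg over the 19 shares tested, each of these exact p-values was 0.48. The Pfkl share was 9.79% ± 1.1 (SD, n = 3) in Ctrl and 6.56% ± 0.53 (SD, n = 3) in cKO. For Slc16a1 the cKO mean was 97.4% ± 0.65 (SD, n = 3), 2.44 percentage points above the Ctrl mean. The level of Slc16a1 itself was not higher in cKO, with a mean of 26.6 FPKM against 29.9 in Ctrl. The same held for Slc2a1, at 50.3 FPKM in cKO against 56.7 in Ctrl. The higher shares went with lower means of Slc16a3, Slc16a7 and Slc2a3, which rest on few reads and were below the level tested.

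For the comparison of genotypes, log2(FPKM + 1) was fitted with limma over 17540 genes. A fold change on this scale understates the change of low genes. With Benjamini-Hochberg adjustment, 0 of the 35 tested genes passed an adjusted p of 0.05, as did 0% of all genes tested; the smallest adjusted p among the 35 was 0.65, for Eno1. At an unadjusted p under 0.05 the count was 0 of 35, beside 7.69% of all genes (2.98% higher and 4.71% lower in cKO). Limma voom on recovered reads also called 0 of all genes at the adjusted threshold. It put 1 of the 35, Eno1, under an unadjusted 0.05, beside 1249 of 17540 genes. A model of all 12 libraries with random effects for A numbers, through 1 correlation shared by all genes, called 112 of all genes and 0 of the 35. That model treats S1 and S2 as partly separate replicates, so its p-values can be too small.

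The sizes of the differences were smaller for these genes than over all genes. Most of these genes lay high in level among the genes tested, and no comparison with genes of like level was made. The median log2 fold change, cKO minus Ctrl, was 0.07 with 21 genes above 0 and 14 below, against -0.01 over all genes. Its absolute size had a median of 0.13, against 0.21 over all genes. The median standard error was 0.16 beside 0.27 over all genes, and the median coefficient of variation over the 6 units was 13.5% beside 28.8%.

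Eno1 had the smallest p, with a log2 fold change of 0.29 (SE 0.12, 95% interval -0.005 to 0.58, limma adjusted p = 0.65). Pfkl followed in the other direction at -0.36 (SE 0.17, 95% interval -0.76 to 0.05, limma adjusted p = 0.72). Ldha was at 0.30 (SE 0.16, 95% interval -0.08 to 0.67, limma adjusted p = 0.75). The intervals were narrowest for steady genes: Gapdh was at 0.02 (95% interval -0.23 to 0.28), Aldoa at 0.07 (-0.18 to 0.32), Ppp1r3c at -0.03 (-0.28 to 0.21) and Pygb at 0.12 (-0.15 to 0.39). For Aldoc the interval, -0.30 to 0.56, was wider, because A1 was low and A8 high within Ctrl. The widest interval was that of Pdk4, -0.77 to 0.49, and those of Pdk1, Eno2, Pygl, Pgm2 and Pygm were nearly as wide.

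Units of the genotypes did not overlap for 5 of the 35 tested genes, beside 13% of all genes. Hk1, Pfkfb2 and Eno1 were higher in every cKO unit, where 5.73% of all genes were. Pfkl and Pygl were lower in every cKO unit, where 7.26% of all genes were. Over single libraries the separation held for Hk1 and Pfkl, and the share of all genes at that level is not given here. Paired libraries from the same unit were nearly alike (Pearson r across genes 0.980 to 0.984). Separation of libraries therefore adds little to separation of units.

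**Figure D3:**
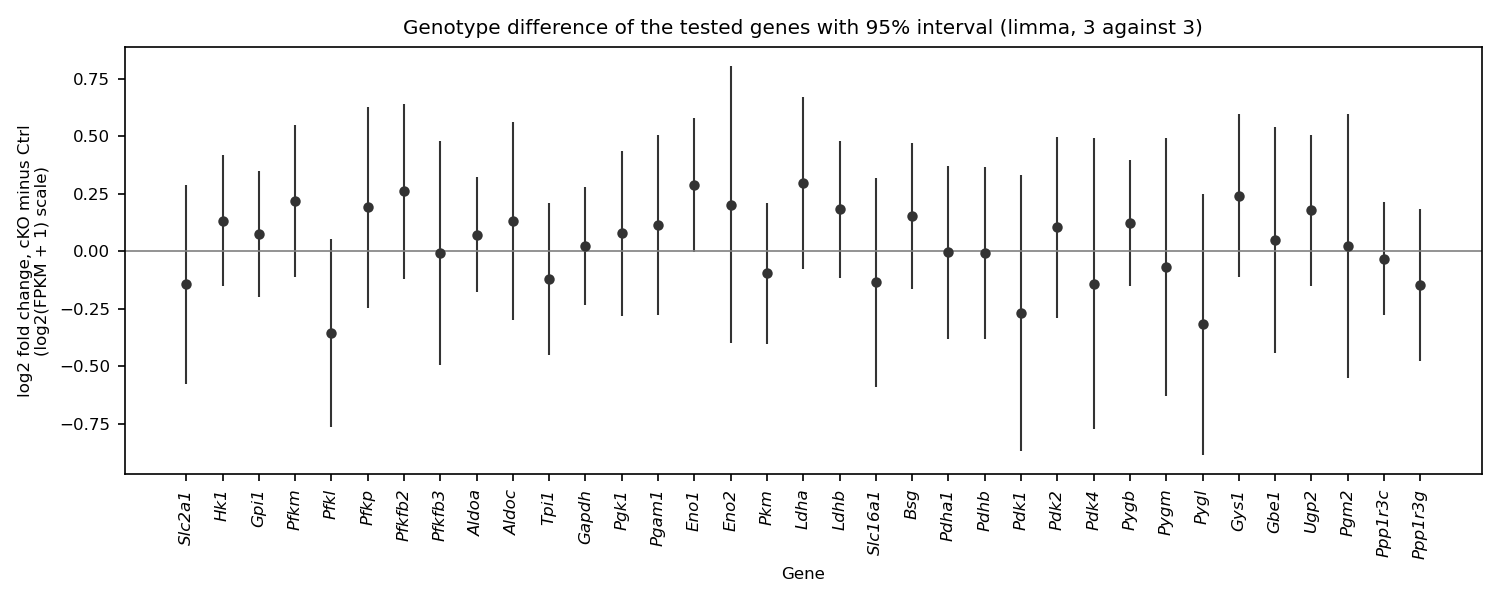
Difference between genotypes for the 35 tested genes, as log2 fold change of FPKM + 1, cKO minus Ctrl, with 95% intervals from limma (3 against 3 units). Each interval includes 0; Eno1 at 0.29 and Pfkl at -0.36 come closest to excluding it.

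Markers of other cells differed between the same units. All 12 oligodendrocyte markers were lower in cKO; their summed FPKM was 1096 to 2354 in the Ctrl units and 313 to 753 in the cKO units, and none was at 0 throughout. In sorted bulk samples, fewer cells of a type and less RNA per cell cannot be told apart. With the mean oligodendrocyte level as a covariate, 0 of the 35 genes reached an unadjusted limma p under 0.05, beside 1009 of 17540 genes. The sign of 14 of the 35 turned. Because the marker level and the genotype separate the same units, their parts cannot be told apart. Summed neuronal markers were 8.21 to 10.6 FPKM in Ctrl and 3.99 to 7.86 in cKO, and summed microglial markers 3.74 to 4.68 and 6.57 to 17.6. Among the 6 microglial markers only P2ry12 separated the genotypes. It was at 1.17, 2.08 and 4.08 FPKM in Ctrl and at 9.22, 6.70 and 4.96 in cKO, while the other microglial markers overlapped. The 13 immediate-early genes, which dissociation can induce, overlapped between genotypes, with summed FPKM of 316 to 1223 in Ctrl and 236 to 577 in cKO. With their level as a covariate, Ldha and Pgk1 reached an unadjusted limma p under 0.05, beside 1988 of 17540 genes.

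The 6 endothelial markers, whose cells also express Slc2a1 and Slc16a1, had a mean log2(FPKM + 1) of 2.96 in A1, 2.45 in A2 and 2.54 in A4, against 0.63 in A8, 0.81 in A9 and 0.74 in A10. Slc2a1 and Slc16a1 were both higher in A1, A2 and A4 than in A8, A9 and A10, a pattern chosen after its values were seen. The 13 immediate-early genes also had their higher means in A1, A2 and A4, but A4 lay close to A10 and well below A1 and A2. Their mean log2(FPKM + 1) was 5.7 in A1, 5.8 in A2 and 4.6 in A4, against 3.8 in A8, 3.6 in A9 and 4.5 in A10. The parts of endothelial RNA and of dissociation in these levels were not tested. The summed endothelial FPKM was 4.35 to 51.3 in Ctrl and 4.49 to 35.0 in cKO, and none of the 6 markers was at 0 throughout. Without A8, Slc2a1, Slc16a1 and Eno1 reached an unadjusted limma p under 0.05, beside 2431 of 17540 genes. The log2 fold change of Slc2a1 became -0.34 from -0.15.

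The wider pathway was read from 7 further lists. Of 15 further glycolysis genes 8 were tested, and 1 had an unadjusted p under 0.05, beside 7.69% of all genes: Bpgm, for the mutase of the 2,3-bisphosphoglycerate bypass, was at 17.8, 13.5 and 8.94 FPKM in Ctrl and at 8.09, 8.75 and 6.95 in cKO. Of 21 further glycogen genes 15 were tested, and 3 were under 0.05, again beside 7.69% of all genes. Gsk3a, a kinase that inhibits glycogen synthase, was at 12.8, 14.0 and 11.2 FPKM in Ctrl and at 7.07, 7.93 and 8.71 in cKO. Its log2 fold change of -0.61 (SE 0.15) had a Benjamini-Hochberg adjusted limma p of 0.35. Ppp1r3d, a further phosphatase targeting subunit, was at 7.26, 9.10 and 7.34 FPKM in Ctrl and at 11.1, 11.3 and 11.1 in cKO (log2 fold change 0.46, SE 0.14). Phka1, for a regulatory subunit of phosphorylase kinase, was at 29.7, 31.3 and 34.2 FPKM in Ctrl and at 39.4, 42.5 and 37.7 in cKO (log2 fold change 0.32, SE 0.11).

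Of 17 regulators of hypoxia and energy signalling 15 were tested and 2 were under 0.05, beside the same 7.69%. Egln1, the oxygen-sensing prolyl hydroxylase, was at 14.1, 17.3 and 15.1 FPKM in Ctrl and at 12.4, 10.6 and 10.7 in cKO (log2 fold change -0.44, SE 0.14). Vegfa, the vascular growth factor induced by hypoxia, was at 89.0, 73.8 and 85.3 FPKM in Ctrl and at 111.5, 98.7 and 93.7 in cKO (log2 fold change 0.29, SE 0.12). Of 8 pentose phosphate genes, all tested, 1 was under 0.05, beside 7.69% of all genes: Pgls, for the lactonase of that path, was at 1.64, 1.45 and 1.05 FPKM in Ctrl and at 2.50, 2.61 and 2.94 in cKO. No gene had an unadjusted p under 0.05 among 5 tested glucose transporters, 11 tested lactate and pyruvate genes or 1 tested gene of gluconeogenesis. None of these genes passed the adjusted threshold. Gyg, for the glycogenin primer, ranged from 8.19 to 11.999 FPKM. The mitochondrial pyruvate carrier genes Mpc1 and Mpc2 were at 7.61 to 17.4 and 2.83 to 4.76 FPKM. Emb, for embigin, the partner of MCT2, was at 0.009 to 1.81 FPKM, and Hcar1, for a lactate receptor, was listed at 0 in 5 of 6 units.

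A difference that did pass the test ran between S1 and S2 libraries rather than between genotypes. The labels do not define S; S2 was the deeper library of every A number. With the A number as a block, a comparison added after the data were seen, limma with Benjamini-Hochberg adjustment called 243 of 17540 genes, 1.39%. Of the 35 tested genes 5 were called: Gapdh, Pgk1, Pgam1 and Eno1 were higher in S2 in 6 of 6 A numbers, where 1.13% of all genes were called higher. Aldoc was lower in S2 in 6 of 6, where 0.257% of all genes were called lower.

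Gapdh was at 101 ± 6.1 FPKM in S1 and 129 ± 8.3 in S2 (SD, n = 6), a log2 difference of 0.35 (SE 0.01, limma adjusted p = 5.4e-05). In single A numbers the Gapdh difference was 0.35, 0.35 and 0.27 in A1, A2 and A8 and 0.36, 0.38 and 0.37 in A4, A9 and A10. Pgk1 was at 36.4 ± 4.3 and 51.1 ± 6.8 FPKM (SD, n = 6), a log2 difference of 0.48 (SE 0.04, limma adjusted p = 0.0016). The Gapdh gap was smallest in A8, and S2 was above S1 in every A number for both genes. Pgam1 was at 10.3 ± 1.6 and 14.98 ± 2.3 FPKM (SD, n = 6), a log2 difference of 0.49 (SE 0.07, limma adjusted p = 0.014). Eno1 was at 70.2 ± 9.4 and 80.2 ± 10.1 FPKM (SD, n = 6), a log2 difference of 0.19 (SE 0.01, limma adjusted p = 0.0008). Aldoc moved far less, by -0.05 (SE 0.01, limma adjusted p = 0.023). The S2 to S1 difference did not pass for a dependence on genotype in any of the 35 genes (interaction test, limma with Benjamini-Hochberg adjustment). Gapdh, Pgk1 and Eno1 remained called with any A number left out, Pgam1 was lost without A1, A9 or A10, and Aldoc was kept only when A9 was left out. Over all genes the count was 152 without A1 or A10 and 161 without A9, and without the A number block 0 of the 35 genes were called.

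The 4 genes called higher in S2, but not Aldoc, have a sequence feature in common, noted after the calls were seen: each has pseudogene copies elsewhere in the genome that repeat long stretches of its coding sequence letter for letter. Coding sequences were compared with GENCODE M21 pseudogenes, and every stretch of 125 bases, the read length, was looked up in the copies. Protein-coding genes that also matched were left out of this look-up: 5 for Gapdh, 2 for Aldoa, and 1 each for Eno1 and Pfkfb2. For Gapdh 100% of these stretches occurred in a copy, and 155 pseudogenes matched it. For Pgk1 and Pgam1 the share was also 100%, with 4 and 3 copies, and for Eno1 it was 64.4%, with 6 copies. In the other 31 tested genes it was at most 8.18%, for Pdhb; Aldoc, called lower, has no copy. Pdhb and Pfkfb3, which has no copy either, were also higher in S2 in 6 of 6 A numbers but were not called, with log2 differences of 0.05 and 0.07. Ldha has 14 copies, with a best identity of 95.9% and no shared stretch of 125 bases. Ldha differed by 0.01 between S2 and S1. Pkm, with 6 copies, shared 4.83% of its stretches and differed by -0.01.

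The first 125 coding bases of Gapdh are shown because the pseudogene Gm7336 on chromosome 7 repeats them without a mismatch, so a 125-base read of this stretch alone has no letter that tells the gene from the copy. Below it stand a stretch of the same length from Ldha, coding bases 76 to 200, and its closest pseudogene, Gm5452 on chromosome 13, in which capitals mark the 11 bases that differ from Ldha.
Gapdh and Gm7336: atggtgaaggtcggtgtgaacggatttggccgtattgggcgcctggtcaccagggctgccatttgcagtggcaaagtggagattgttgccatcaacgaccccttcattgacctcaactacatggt
Ldha: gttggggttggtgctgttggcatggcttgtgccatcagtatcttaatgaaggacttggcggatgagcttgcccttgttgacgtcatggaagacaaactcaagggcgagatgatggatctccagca
Gm5452: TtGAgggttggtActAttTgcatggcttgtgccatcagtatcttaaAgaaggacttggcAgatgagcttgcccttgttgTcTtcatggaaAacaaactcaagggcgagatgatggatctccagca

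Pgk1 and Eno1 are matched in the same way over their first 125 coding bases, by Gm5537 on chromosome 3 and by Gm4735 on chromosome 2, while Pkm keeps 2 distinguishing bases (capitals in the copy, Gm6560 on chromosome 5).
Pgk1 and Gm5537: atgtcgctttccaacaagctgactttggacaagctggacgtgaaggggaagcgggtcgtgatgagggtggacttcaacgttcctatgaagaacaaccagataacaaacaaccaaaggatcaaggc
Eno1 and Gm4735: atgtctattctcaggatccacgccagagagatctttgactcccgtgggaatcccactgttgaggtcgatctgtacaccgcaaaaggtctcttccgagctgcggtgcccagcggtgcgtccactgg
Pkm: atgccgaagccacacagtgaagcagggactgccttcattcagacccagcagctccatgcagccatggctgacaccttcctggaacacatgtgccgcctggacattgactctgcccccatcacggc
Gm6560: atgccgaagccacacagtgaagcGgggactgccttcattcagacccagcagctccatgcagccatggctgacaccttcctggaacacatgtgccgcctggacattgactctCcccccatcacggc

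The deposited table lists the copies too. Reads on the Gapdh copies were 40.9 per 1000000 in S1 and 42.9 in S2, against 418 and 533 on Gapdh itself. For Pgk1 the copies held 1.69 and 2.40 reads per 1000000, and the gene 81.7 and 115. For Eno1 the copies held 2.67 and 2.97, and the gene 378 and 431. The copies of Pgam1 went the other way, from 0.473 in S1 to 0.333 in S2, while the gene went from 20.5 to 29.7. Levels of these genes are uncertain where reads can be assigned to a copy, and how the authors' counting treated such reads is not given in the sources used here. The part of shared sequence in the S2 to S1 difference was not tested. The shares of Eno1 and the ranges given above for Gapdh, Pgk1 and Pgam1 average over this difference, which had the same sign in both genotypes.

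**Figure D4:**
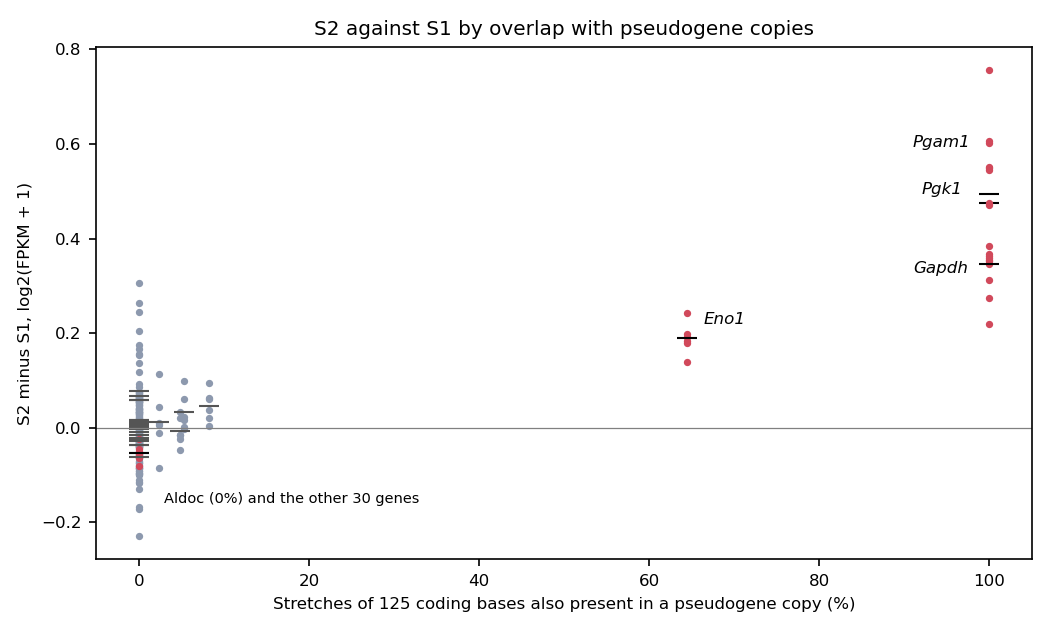
Difference between S2 and S1, log2(FPKM + 1), for each tested gene in each of the 6 A numbers (points) with the mean (line), against the percentage of its 125-base coding stretches that occur in a pseudogene copy. Gapdh, Pgk1, Pgam1 and Eno1 stand at 64.4% or more and above 0 in all 6 A numbers, and the other genes lie at 8.18% or less around 0.

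Promoters were read for a sequence that the choice of genes did not use. The hypoxia-response core is ACGTG, and CACGTG is the E-box read by MYC and USF factors, which contains ACGTG; both were searched on both strands in RefSeq windows of 300 bases around the gene start (build GRCm38.p6). Of the 39 genes 36 have an entry. ACGTG occurred in 21 of the 36 (58.3%), against 19.7% of 27025 promoters and 25.6% of the 10040 promoters of tested genes. CACGTG occurred in 6 of the 36 (16.7%), against 7.24% and 9.96%. The median number of CG pairs was 20.5 in the set and 21 in the tested genes. A match is a string of letters, not a bound site, and no measurement here bears on factor binding.

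The Ldha promoter is shown because it holds 3 separate ACGTG matches, in capitals, of which a pair are the full E-box (chr7:46845554-46845803, plus strand, GRCm38.p6).
Ldha promoter: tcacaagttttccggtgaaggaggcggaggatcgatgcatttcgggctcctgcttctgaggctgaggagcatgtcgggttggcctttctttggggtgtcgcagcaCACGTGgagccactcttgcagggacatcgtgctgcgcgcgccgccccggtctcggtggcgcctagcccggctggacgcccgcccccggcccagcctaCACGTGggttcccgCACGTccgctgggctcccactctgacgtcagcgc

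Aldoc, the highest gene of the set, and Pygb, its highest glycogen gene, also hold ACGTG in their windows, as do Pygm, Pygl, Ppp1r3c, Ppp1r3g and Ugp2. Over the first 250 bases of the window, the stretch printed for Ldha, Aldoc held 0 matches and Pygb 1. No gene of the set, with or without a match, passed the genotype test.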

How the data were processed

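The deposited table gives FPKM values for 12 libraries of sorted hippocampal astrocytes, made by the authors per kilobase of total exon length and per 1000000 assigned fragments, per the file headers and values. The submitters' processing notes name FastQC, STAR, featureCounts and DESeq2 and the builds mm10 and GRCm38, with no versions; only 2.5% of the set's rows had the start and end of GRCm38 in GENCODE M21, so the text prints the table's own coordinates, whose build is not given in the sources used here.

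Rows sharing a symbol (147 symbols) were added, and 310 rows without a symbol kept their identifier. Genes with a mean of at least 1 FPKM (17540) were tested on log2(FPKM + 1) with limma 3.58.1 in R 4.3.3 (eBayes with trend, two-sided, Benjamini-Hochberg, threshold 0.05), with S1 and S2 averaged per A number (Pearson r across genes 0.980 to 0.984 within and 0.788 to 0.896 between A numbers). Replicate numbers in the labels mark S1 and S2 and pair no Ctrl with a cKO sample. Isozyme shares were compared by an exact permutation test written in Python 3.11.15 with numpy 2.4.6. Depth was recovered from the steps of low FPKM values, which put 82.8% to 86.3% of genes above 0 at whole reads (within 0.02 of a read); floors and read numbers cover counting error only, since PCR copies of a molecule were not marked.

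Pseudogene copies were found with BLAST+ 2.17.0 at 90% identity or more over 125 bases or more, among GENCODE M21 transcripts. The fits were tested on simulated data. Of 183 genes changed by a log2 of 2 between genotypes, 121 (66.1%) were recovered, with 8 false calls. Of 198 genes changed by 0.5 between S1 and S2, 146 (73.7%) were recovered, with 8 false calls. Smaller genotype changes were not simulated.

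The genes, the further lists and the tests were chosen with earlier results of these data known. Values per unit are given for the highest isozyme of a step, for genes whose units do not overlap or whose unadjusted p is under 0.05, and for Ldha, Pygm, Slc16a7 and Pgm1, which were added after their values were seen, with ranges for the others; of the further lists, the 5 smallest p are named, with Pgm1, Gyg1 (listed as Gyg), Mpc1, Mpc2, Emb and Hcar1 (1 further gene of the rule is not reported here), and Bpgm and Vegfa were named after their values were seen. Alternatives covered pseudocount, filter, scaling, variance model, treatment of S1 and S2, each A number left out, marker covariates, voom on recovered reads and other lengths.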

Additional observations from a re-analysis of the deposited data

Results flagged for a closer look

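The S2 minus S1 difference of Gapdh in A8, 0.27 on the log2(FPKM + 1) scale, lay further below those of the other 5 A numbers than Dixon's 95% criterion allows. It was 1 of 5 such groups of 6 examined, and chance marks about 1 in 20.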

How the results depend on the processing

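No member gene passed an adjusted limma p of 0.05 between genotypes under any of the 21 alternatives. The count at an unadjusted p under 0.05, 0 in the reported fit, was 1 with a pseudocount of 0.1 (Eno1) and with no filter (Eno1). The counts over all genes were then 1332 of 17540 and 1899 of 33395. The member count was also 1 on the TPM scale (Pfkl) and with voom on recovered reads (Eno1), beside 1370 and 1249 of 17540 genes. With upper quartile scaling (Eno1, Ldha) and with the immediate-early covariate (Ldha, Pgk1) it was 2, beside 1386 and 1988. The member count ran from 0 to 3 with 1 A number, S1 or S2 left out, beside 865 to 2431 of all genes. With A numbers modelled as random effects, through 1 correlation shared by all genes, the same count was 2 (Ldha, Pfkl), beside 1569 of all genes. In that model 112 of all genes passed the adjusted threshold. With the replicate block added to that model the count was 3 (Eno1, Ldha, Pfkl), beside 1488 of all genes, and 80 of all genes passed. The replicate numbers mark S1 and S2 and pair no animals. With an A number left out, 0 to 1 of all genes passed.

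The signs that turned were all of genes not called between genotypes. On the TPM scale the log2 fold change was -0.0031 for Aldoa, -0.054 for Gapdh, -0.015 for Gbe1 and -0.046 for Pgm2. Upper quartile scaling gave 0.071 for Pdha1, 0.067 for Pdhb, 0.063 for Pfkfb3, 0.045 for Ppp1r3c and 0.0095 for Pygm, and voom 0.0013 for Pdha1 and 0.0038 for Pdhb. The immediate-early covariate gave -0.052 for Aldoc, -0.036 for Gbe1, 0.17 for Pdha1, 0.17 for Pdk4, 0.030 for Pkm, 0.11 for Slc16a1 and 0.10 for Slc2a1. The oligodendrocyte covariate gave -0.19 for Aldoc, -0.10 for Gapdh, -0.059 for Gbe1, -0.13 for Ldhb, 0.15 for Pdha1, 0.091 for Pdk1, 0.20 for Pdk4, -0.25 for Pfkp, -0.24 for Pgam1, -0.42 for Pgm2, 0.18 for Pkm, 0.20 for Slc16a1, 0.29 for Slc2a1 and -0.13 for Ugp2. With 1 A number, S1 or S2 left out, values ran from -0.040 to 0.31 for Aldoc, -0.026 to 0.078 for Gapdh, -0.10 to 0.15 for Gbe1, -0.11 to 0.11 for Pdha1, -0.13 to 0.088 for Pdhb, -0.052 to 0.25 for Pdk2, -0.38 to 0.13 for Pdk4, -0.17 to 0.17 for Pfkfb3, -0.045 to 0.17 for Pgk1, -0.16 to 0.16 for Pgm2, -0.091 to 0.010 for Ppp1r3c, -0.29 to 0.19 for Pygm, -0.33 to 0.014 for Slc16a1 and -0.34 to 0.00060 for Slc2a1.

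Shares moved by construction when lengths changed. On principal transcript lengths the mean share was 97.9% for Slc2a1, 59.9% for Pfkm, 30.4% for Pfkp, 23.7% for Aldoa, 98.7% for Eno1, 18.6% for Ldha, 23.1% for Pdk4, 2.52% for Pygl and 80.9% for Ppp1r3c, and the Pygl difference, cKO minus Ctrl, was -0.87 percentage points. As reads without length correction it was 97.5% for Slc2a1, 51.6% for Pfkm, 10.8% for Pfkl, 37.6% for Pfkp, 98.2% for Eno1, 23.7% for Ldha, 92.3% for Slc16a1, 6.04% for Slc16a7, 12.1% for Pdk1, 58.4% for Pdk2, 80.4% for Pygb, 17.6% for Pygm and 1.95% for Pygl. The differences, cKO minus Ctrl, were then 1.24 for Slc2a1, 4.64 for Slc16a1, -3.51 for Slc16a7 and -0.695 for Pygl, in percentage points.

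The S2 to S1 comparison called 22 of all genes and 0 members without the A number block; the cause was not tested. With 1 A number left out it called 152 to 180 of all genes and 3 to 4 members, always including Gapdh, Pgk1 and Eno1. Pgam1 was lost without A1, A9 or A10, and Aldoc without any A number but A9. Members below 1 FPKM rest on few reads, and 3 units a genotype limit the precision to the intervals given.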
